A study of Caenorhabditis elegans with 2 samples.

Results

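On the X chromosome of Caenorhabditis elegans, 412 peaks of the MEP-1 zinc finger protein had their summit in the promoter window of a protein-coding gene, out of 901 X peaks and 4904 peaks in all. Windows reached 1000 bp up and 200 bp down from each protein-coding 5′ end in the annotation, and membership used position only. The data come from chromatin immunoprecipitation with sequencing (ChIP-seq) of MEP-1 fused to GFP, in L1 larvae of mixed sex taken whole. The strain was OP102, which carries the insertion wgIs102 for tagged mep-1 in an unc-119(tm4063) background, and both libraries have this genotype. There were 2 biological replicates of 1 group, with no other genotype, treatment or stage, and how the tagged copy relates in amount to the native mep-1 gene is not given in the sources used here. Whole larvae were used, so binding in a few cells and weaker binding in many cells cannot be told apart. The values are the authors' peak positions and a signal value per peak, which serves here to rank peaks within a list, with rank 1 the strongest.

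MEP-1 acts with LET-418, a Mi-2 chromatin remodeller, and with histone deacetylase in complexes known for keeping germline genes silent in somatic cells of the worm. X carries few genes used in the germline, and in the hermaphrodite both X chromosomes are partly repressed by the dosage compensation complex. That complex is loaded at recruitment elements on X that carry a motif with the core GCGCAGGG, and it then spreads to promoters.

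The sequence under 10 X promoter summits is shown first, because these windows set summits with the words described below beside strong summits without them. Each is 101 bases of WBcel235 (ce11) centred on the summit, taken from the RefSeq assembly and written 5′ to 3′ on the strand of the named gene, counted from 1, and none overlaps an exon. Capitals mark the word CTGCGTCTC or the word GCGCAGGG on either strand. Windows with GCGCAGGG were those of nspc-17 (chrX:14525869-14525969, minus strand), ins-39 (chrX:1345016-1345116, minus strand) and apm-3 (chrX:954867-954967, plus strand).
nspc-17: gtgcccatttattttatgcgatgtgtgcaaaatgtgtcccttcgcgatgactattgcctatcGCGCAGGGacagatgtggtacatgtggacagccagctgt
ins-39: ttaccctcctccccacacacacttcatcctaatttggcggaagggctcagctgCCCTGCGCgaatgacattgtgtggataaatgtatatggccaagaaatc
apm-3: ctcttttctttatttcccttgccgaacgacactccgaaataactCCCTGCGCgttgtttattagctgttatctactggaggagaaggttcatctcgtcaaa

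Windows with CTGCGTCTC are shown for asb-2 (chrX:4469451-4469551, plus strand), C27C12.4 (chrX:14853932-14854032, plus strand), hsp-3 (chrX:6092126-6092226, minus strand) and vha-15 (chrX:2237559-2237659, plus strand).
asb-2: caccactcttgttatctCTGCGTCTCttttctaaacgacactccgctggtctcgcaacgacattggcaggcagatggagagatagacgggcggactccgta
C27C12.4: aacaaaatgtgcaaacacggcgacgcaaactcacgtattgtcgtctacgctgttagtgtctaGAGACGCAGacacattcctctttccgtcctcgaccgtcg
hsp-3: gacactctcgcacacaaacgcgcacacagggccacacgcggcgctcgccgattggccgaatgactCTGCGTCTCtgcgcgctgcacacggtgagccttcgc
vha-15: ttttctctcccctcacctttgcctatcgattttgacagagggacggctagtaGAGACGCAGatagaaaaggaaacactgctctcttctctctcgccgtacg

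Strong summits that held neither word are shown for F17E5.2 (chrX:12393968-12394068, plus strand), puf-9 (chrX:5841224-5841324, plus strand) and rpl-11.2 (chrX:2242952-2243052, minus strand).
F17E5.2: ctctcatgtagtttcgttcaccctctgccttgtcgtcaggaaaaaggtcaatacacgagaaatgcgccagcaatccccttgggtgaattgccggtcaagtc
puf-9: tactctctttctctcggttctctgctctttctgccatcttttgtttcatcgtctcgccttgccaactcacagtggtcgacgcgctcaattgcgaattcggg
rpl-11.2: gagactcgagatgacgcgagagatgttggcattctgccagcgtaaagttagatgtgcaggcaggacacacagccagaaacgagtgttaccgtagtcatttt

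The 412 summits lay in the windows of 417 of the 2731 X-linked protein-coding genes, which is 15.3% (exact 95% interval 13.9 to 16.7). The same count was 3074 of 17242 autosomal genes, which is 17.8% (17.3 to 18.4), and over all genes it was 17.5%. Among single autosomes the share ran from 11.5% on V to 26.7% on III, so the X value lay within the autosomal range. Of the 417 X genes, 253 have a gene-class symbol and 164 are known by a sequence name alone. In the relaxed list of the pooled replicates, with 30000 calls, the order of X and autosomes was the other way. There 47.9% of X genes (45.97 to 49.8) and 41.5% of autosomal genes (40.7 to 42.2) had a summit in a window. All such intervals here are Clopper-Pearson intervals that treat peaks or genes as independent, which neighbouring ones are not, and differences between sets were not tested.

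Seen per peak, 45.7% of X summits were in a window (42.4 to 49.04), against 60.6% of autosomal summits (59.0 to 62.1) and 57.9% of the whole list. Such windows took up 21.8% of X and 27.1% of the autosomes by length. Per length of window the densities were close, at 107 peaks per Mb of window on X and 109 on the autosomes. What differed more was sharing of a peak between genes. On X 33 promoter summits (8.01%, 5.58 to 11.1) were shared by the windows of at least 2 genes, against 815 (33.6%, 31.7 to 35.5) on the autosomes. Window bases shared by 2 or more genes made up 4.50% of the window length on X and 11.3% on the autosomes. Most X promoter peaks thus lay in the window of 1 gene.

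The strongest X promoter peak by a wide margin stood at nspc-17 (WBGene00008359), which encodes a nematode-specific peptide of group C. It spanned 14525637 to 14526112 with its summit 738 bp upstream of the 5′ end. Its signal was 713 and its rank 7 of 4904, and it ranked 7 in replicate 1 and 10 in replicate 2. The next X promoter peak stood at rank 41, so no other one was among the 40 strongest of the list. The peak of rank 1 was an X peak outside promoter windows. The peptide family has 18 X-linked members and no autosomal one, and nspc-17 alone had a promoter peak. In the relaxed list of the pooled replicates, 2 of the 18 had a summit in their window.

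At hst-2 (WBGene00002029), the heparan sulfate 2-O-sulfotransferase, the signal was 477 and the rank 41, with rank 45 in replicate 1 and 39 in replicate 2. Its summit lay 9 bp upstream of the 5′ end. F17E5.2 (WBGene00008924), annotated as a putative calcium-binding mitochondrial carrier, had a signal of 466 and rank 44, with ranks 44 and 51 in replicates 1 and 2. These peaks held nearly the same place in both replicates. The Pumilio-family RNA-binding protein gene puf-9 (WBGene00004245) had a signal of 455 and rank 48, with ranks 47 and 52 in replicates 1 and 2. For rpl-11.2 (WBGene00004423), which encodes a protein of the large ribosomal subunit, the signal was 420 and the rank 63, with ranks 57 and 86 in replicates 1 and 2. The summits at F17E5.2, puf-9 and rpl-11.2 lay 240, 318 and 384 bp upstream.

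The next 20 peaks had signals of 263 to 377 and ranks of 105 to 292. They were those of C14A11.9, ins-39, mans-3, C36E6.2, rme-4, serp-1.1, ZC506.1, sec-3, eef-1A.2, sym-4, sdha-1, bet-2, ucr-2.2, mdt-1.2, zfp-3, epg-7, asb-2, uggt-1, C05G5.2 and ain-1. Of these, ins-39 (signal 352, rank 123) encodes an insulin-related peptide, while mans-3 (signal 350.3, rank 124) and ZC506.1 (signal 312, rank 168) encode alpha-mannosidases. The ZC506.1 peak ranked 131 in replicate 1 and 426 in replicate 2, a wider spread than at its neighbours in the list. Several of the others belong to the secretory and endocytic route. They include rme-4 (signal 339), a DENN-domain protein of yolk endocytosis, serp-1.1 (316), a stress-associated protein of the endoplasmic reticulum, sec-3 (305), an exocyst subunit, and uggt-1 (274), the glucosyltransferase that senses unfolded glycoproteins. Mitochondrial enzymes were there as well, with sdha-1 (295), the flavoprotein of succinate dehydrogenase, ucr-2.2 (286), a core protein of respiratory complex III, and asb-2 (278), a subunit of ATP synthase. Regulators of gene expression among them were bet-2 (289), a bromodomain protein, mdt-1.2 (285), a Mediator subunit, and ain-1 (263), the GW182 partner of Argonaute in microRNA silencing. The autophagy scaffold gene epg-7 (279.8) and eef-1A.2 (297), a translation elongation factor, completed the named functions.

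**Figure D1:**
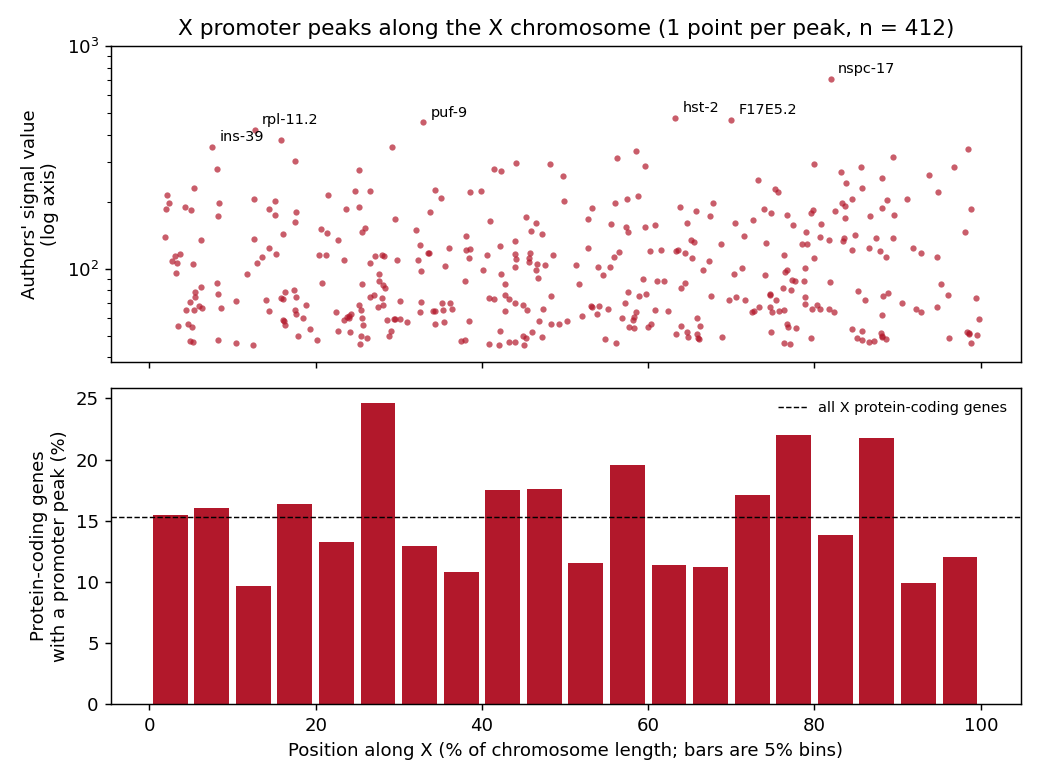
Upper panel, the authors' signal value of each of the 412 X promoter peaks (log axis) against position along X in percent of its length. Lower panel, percent of protein-coding genes with a promoter peak in each 5% of X, with the dashed line at the share over all X genes. The 6 labelled peaks are spread over the chromosome, from ins-39 at 7.59% to nspc-17 at 82.0% of the length.

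Over all 412 peaks the median signal was 88.1 (order-statistic 95% interval 78.4 to 102), within a range of 45.5 to 713, and the median rank was 2283.5. The autosomal promoter peaks had a median signal of 97.02 (94.5 to 101) and a median rank of 1993, while the 489 X peaks outside windows had 73.1 (68.3 to 76.3) and 2855. X promoter peaks thus ranked between these sets, and their interval overlapped that of the autosomal promoter peaks. In the highest-signal 10% of the list stood 42 X promoter peaks (10.2%, 7.45 to 13.5), against 350 autosomal ones (14.4%, 13.1 to 15.9) and 31 of the X peaks outside windows (6.34%, 4.35 to 8.88). X supplied 10.7% of the promoter peaks in the highest 10% of the list and 19.3% in the lowest 10%, without a steady change between. The 3 weakest members were F45E1.4 at rank 4873, acl-12 at rank 4870 and peb-1 at rank 4863, all with a signal near 45.5, the lowest of the set.

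**Figure D2:**
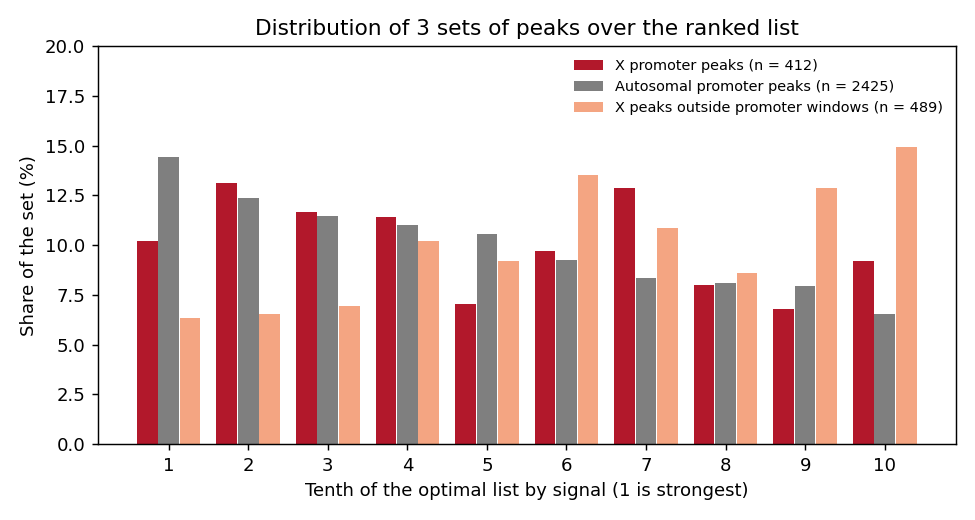
Share of each set of peaks (percent) in each 10% of the optimal list, with class 1 the strongest, for X promoter peaks, autosomal promoter peaks and X peaks outside promoter windows. X promoter peaks made up 10.2% of their own set in the strongest class, against 14.4% and 6.34% in the other sets.

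Most members were strong in each replicate. Among the 4904 strongest calls of both replicates were 332 of the 412 peaks (80.6%, 76.4 to 84.3), where the whole list had 76.9%, the autosomal promoter peaks 82.0% and the X peaks outside windows 71.8%. A further 45 were among the strongest of replicate 1 alone, 32 of replicate 2 alone and 3 of neither. An overlapping call of any rank was present in both replicates for 411. Because the list was derived from these replicates, a high share is built in. Spearman's rho between the replicates' signals was 0.767 over 411 X promoter peaks, 0.816 over 2402 autosomal promoter peaks and 0.691 over 484 X peaks outside windows, as a description of selected peaks.

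Some weak members ranked far lower in 1 of the libraries. The peak at peb-1, which encodes a DNA-binding protein of the pharynx, ranked 25744 in replicate 1 and 2913 in replicate 2. A weak lin-14 peak of rank 4237 ranked 2921 in replicate 1 and 25148 in replicate 2. D1053.4 had ranks of 3247 and 17300 in replicates 1 and 2. The lower of the 2 nhr-1 peaks, at rank 4752, was called at rank 3593 in replicate 1 and not called in replicate 2. It is named here because it is the only member without a call in both. Each of these 4 peaks lay in the lowest 20% of the list.

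**Figure D3:**
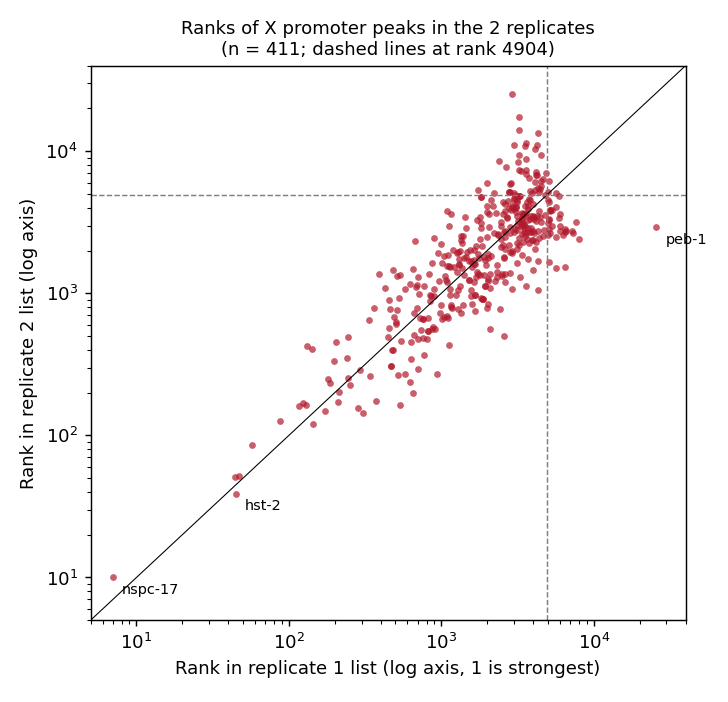
Rank of each X promoter peak in the replicate 1 list against its rank in the replicate 2 list (both log axes, n = 411), with the diagonal and dashed lines at rank 4904. The strongest peaks lie near the diagonal, and peb-1 is far to the right, with rank 25744 in replicate 1 and 2913 in replicate 2.

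The window reaches 1000 bp up and 200 bp down, so the rule itself favours summits upstream of the gene start. The median distance below also depends on the window length. Upstream of the nearest 5′ end lay 382 summits (92.7%, 89.8 to 95.0), against 92.2% of the autosomal promoter summits. The median signed distance was -227 bp on X (-261 to -198) and -178 bp on the autosomes (-189 to -169). The interval of 100 to 300 bp upstream held 43.4% of the X summits and 43.7% of the autosomal ones. Within 100 bp of the 5′ end the shares were 16.5% (13.1 to 20.4) on X and 25.9% (24.2 to 27.7) on the autosomes. Over 500 bp away they were 19.7% (15.9 to 23.8) on X and 15.6% (14.2 to 17.1) on the autosomes. Each distance is to the nearest 5′ end, and summits in windows of 2 or more genes have more of these to be near. Such summits were 8.01% on X and 33.6% on the autosomes, and the part of this in the distances was not tested. Trans-splicing removes the first bases of many worm transcripts, so an annotated 5′ end may lie downstream of the true start.

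**Figure D4:**
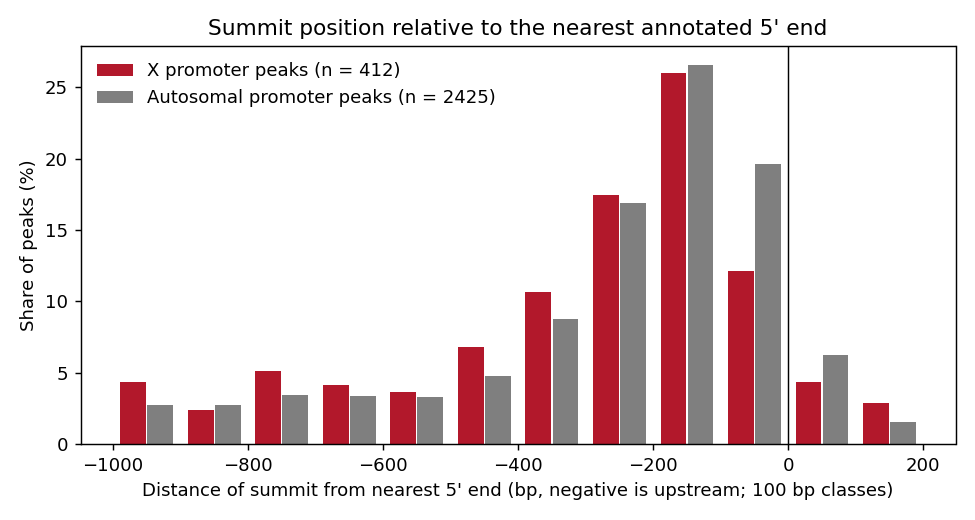
Share of summits (percent) in classes of 100 bp by signed distance from the nearest annotated 5′ end, for X promoter peaks and autosomal promoter peaks, with negative values upstream. Both sets have their highest bar from 200 to 100 bp upstream, and the X bar in the 100 bp just upstream of the 5′ end is lower, at 12.1% against 19.6%.

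The nearest summits were those of pdi-2, 1 bp upstream, F43C9.2, 3 bp upstream, and sym-1, 6 bp downstream of the 5′ end. The gene pdi-2, for a protein disulfide isomerase, had a signal of 147 and rank 1038. The farthest were those of tra-4 at 1000 bp, T01C8.3 at 996 bp and lin-15B at 990 bp upstream. The lin-15B peak was a strong one among these, with rank 540. At the upstream edge of the window tra-4 (signal 58.6) and T01C8.3 (67.2) fell just inside, while summits at K09E9.1 (67.99) and fbxb-58 (286, rank 223) fell just outside at 1005 and 1007 bp. At the downstream edge K10B3.5 (161) and ZK470.2 (58.9) fell just inside at 198 bp, while summits at aat-3 (53.4) and ztf-16 (54.1) fell just outside at 247 and 279 bp. The fbxb-58 peak would have stood among the 20 strongest members had the window been slightly longer. Relative to the models of all protein-coding genes, 323 summits were intergenic, 55 in an intron and 34 in an exon. Whether the exon or intron belonged to the named gene was not recorded.

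Along X the members were spread about as the genes were. The middle 50% of the chromosome held 219 summits (53.2%, 48.2 to 58.1) and 52.9% of X protein-coding genes. The share of genes with a promoter peak was 15.3% in the middle 50% and 15.3% in the outer 50%. By 1 Mb of length, most peaks lay from 4000001 to 5000000 (36 peaks, strongest asb-2) and from 13000001 to 14000000 (34 peaks, strongest sir-2.2, an NAD-dependent deacylase). Fewest among full bins lay from 16000001 to 17000000 (11 peaks, strongest ain-1) and from 1000001 to 2000000 (14 peaks, strongest ins-39). Genes with a peak made up 21.6% of the 153 genes of the first of these bins and 9.35% of the 107 genes of the third. Neighbouring summits were a median of 26433 bp apart. The longest stretch without a member was 317369 bp, from 1536401 to 1853770, and held 45 protein-coding genes.

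More than 1 promoter peak was found at 28 genes, and 3 at lin-14 alone, the heterochronic transcription factor gene whose messenger RNA is a target of the lin-4 microRNA. Its peaks ranked 909, 4237 and 4458, with the strongest 203 bp upstream of the nearest 5′ end. Regulatory genes with 2 peaks included nhr-1 (ranks 686 and 4752), cebp-1 (791 and 2657), sma-9 (944 and 3264) and mdl-1 (1129 and 1408). They are known as a nuclear hormone receptor, a bZIP factor of axon regeneration, a Schnurri-type factor of the body size pathway and a Mad-like basic helix-loop-helix factor. The muscle-expressed actin gene act-4 also had 2, at ranks 1531 and 2813.

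Lists of gene classes were read against the X background of 15.3%. They held 431 distinct X-linked genes, of which 54 had a promoter peak. No list was tested, and each is described by its counts on X and then on the autosomes. A gene said to have none had no summit of the optimal list in its window. Some such genes had one in the relaxed pooled list, where all 3 X-linked vacuolar ATPase genes and both let genes did.

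Genes of dosage compensation and sex determination had a peak at 2 of 6 X-linked members and 4 of 14 autosomal ones. The 2 were sdc-1 (signal 124, rank 1347), a zinc finger protein of the dosage compensation complex, and ceh-39 (46.5, rank 4765), an X-signal element that represses xol-1. The promoters of fox-1 and sdc-2 had none. Heterochronic genes, which time larval fates, had a peak at 3 of 6 on X and 5 of 10 on the autosomes. These were ain-1, lin-14 and the Argonaute gene alg-1 (87.6, rank 2293), and daf-12 and hbl-1 had none. In the list of chromatin and synMuv genes, the class to which mep-1 itself belongs, a peak stood at 4 of 9 on X and 24 of 43 on the autosomes. It was strongest at lin-15B (203), a THAP-domain protein that represses germline genes in the soma. The others were chd-3 (63.8, rank 3355), a second Mi-2 homologue, utx-1 (56.4, rank 3883), a histone H3 lysine demethylase, and hil-3 (rank 4222), a linker histone, while hda-4 and hpl-1 had none.

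Among developmental transcription factors 7 of 36 on X and 18 of 91 on the autosomes had a peak. The strongest were at nfya-1 (173, rank 777), a subunit of the CCAAT-binding NF-Y complex, lin-14 (160, rank 909), sma-9 (157, rank 944) and mdl-1 (140.1, rank 1129), and bar-1 and ceh-14 had none. For nuclear hormone receptors the counts were 6 of 23 on X and 40 of 246 on the autosomes, led on X by nhr-1, nhr-32, nhr-17 and nhr-48. The ceh homeobox genes had 1 of 18 on X, which was ceh-39, and 5 of 45 on the autosomes.

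Signalling genes had a peak at 6 of 24 on X and 18 of 75 on the autosomes. The leading members were aak-2 (221, rank 440), a catalytic subunit of AMP-activated kinase, akt-2 (184, rank 690), a kinase of the insulin pathway, kin-29 (143, rank 1085), a salt-inducible kinase, and egl-17 (108, rank 1708), a fibroblast growth factor. The list of body wall muscle and dystrophin complex genes had 4 of 16 on X and 11 of 35 on the autosomes. Those on X were act-4, unc-115, dim-1 and unc-98, whose summit was shared with F08C6.18. Of these, unc-115 is annotated as an actin-binding protein involved in axon guidance, not as a muscle protein. RAB, ARF and TBC genes of membrane traffic had 4 of 11 on X and 14 of 35 on the autosomes. Ribosomal protein genes have 2 X-linked members, of which rpl-11.2 had a peak and rpl-25.1 none, against 68 of 79 on the autosomes. Of the vacuolar ATPase genes, which acidify organelles, vha-15 (205, rank 524) and vha-12 (rank 672) had a peak and vha-20 had none, against 7 of 18 on the autosomes. Chaperone genes had 3 of 5 on X and 30 of 54 on the autosomes, among them hsp-3 (225, rank 420), which encodes a BiP-type chaperone of the endoplasmic reticulum. The list of yolk, lipid and intestinal genes had 2 of 13 on X, aco-1 and asp-4, and 8 of 41 on the autosomes.

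Synaptic and axonal genes had a peak at 3 of 35 on X (8.57%) and 16 of 71 on the autosomes (22.5%). These were syd-2 (154, rank 969), a liprin of the presynaptic active zone, unc-1 (67.9, rank 3102), a stomatin, and unc-84 (56.6, rank 3862), a SUN-domain protein of the nuclear envelope, while aex-3 and cat-1 had none. Neuropeptide genes named flp, nlp or ins had 1 of 34 on X, which was ins-39, and 4 of 106 on the autosomes. Outside that list, B0410.3 (rank 2600), annotated as a neuropeptide-like protein, also had a peak. It was found among the genes with a peak, and genes so annotated without a peak were not counted. Receptors for neuropeptides had 0 of 23 on X and 2 of 61 on the autosomes. Acetylcholine receptors and ligand-gated channels had 1 of 27 on X and 0 of 60 on the autosomes. That 1 was lev-9, an extracellular protein that clusters acetylcholine receptors and no channel itself, and its summit (102, rank 1847) also lay in the window of mom-1 and near a tRNA gene. Potassium channels of the twk class had 0 of 10 on X and 2 of 34 on the autosomes, and chemoreceptors of the sr families 0 of 34 on X and 8 of 1279 on the autosomes. Basement membrane and adhesion genes had 1 of 22 on X, the apical junction gene ajm-1 (rank 1814), and 6 of 39 on the autosomes. Cuticle collagens had 2 of 27 on X, col-185 and col-166 (7.41%), and 10.9% of those on the autosomes. Hedgehog-related genes had 0 of 10 on X and 2 of 49 on the autosomes, and cytochrome P450 genes 0 of 7 on X and 7 of 67 on the autosomes. F-box genes named fbxa, fbxb or fbxc had 1 of 17 on X, fbxa-141 (rank 2300), and 21 of 305 on the autosomes. Outside that list, K02A6.3 (rank 913), K06A9.2 (rank 3193) and F56F10.2 (rank 4677), with F-box domain products, also had a peak. They were found among the genes with a peak. Genes of that kind without a peak were not counted, on X or the autosomes. C-type lectins had 0 of 3 on X and 6 of 237 on the autosomes.

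Classes named for a mutant appearance mix functions and overlap the lists above. The unc genes, named for uncoordinated movement, had 4 of 16 on X and 26 of 78 on the autosomes, the lin genes, named for lineage defects, 2 of 6 and 21 of 41, and the let genes, named for lethality, 0 of 2 and 10 of 32. Of 4 X-linked genes with a his symbol, his-24 (rank 3221), for a linker histone, had a peak, against 15 of 68 on the autosomes. The linker histone gene hil-3, named above with a peak, is not in that list. Mitochondrial ribosomal protein genes and proteasome genes have no X-linked member in the lists used.

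**Figure D5:**
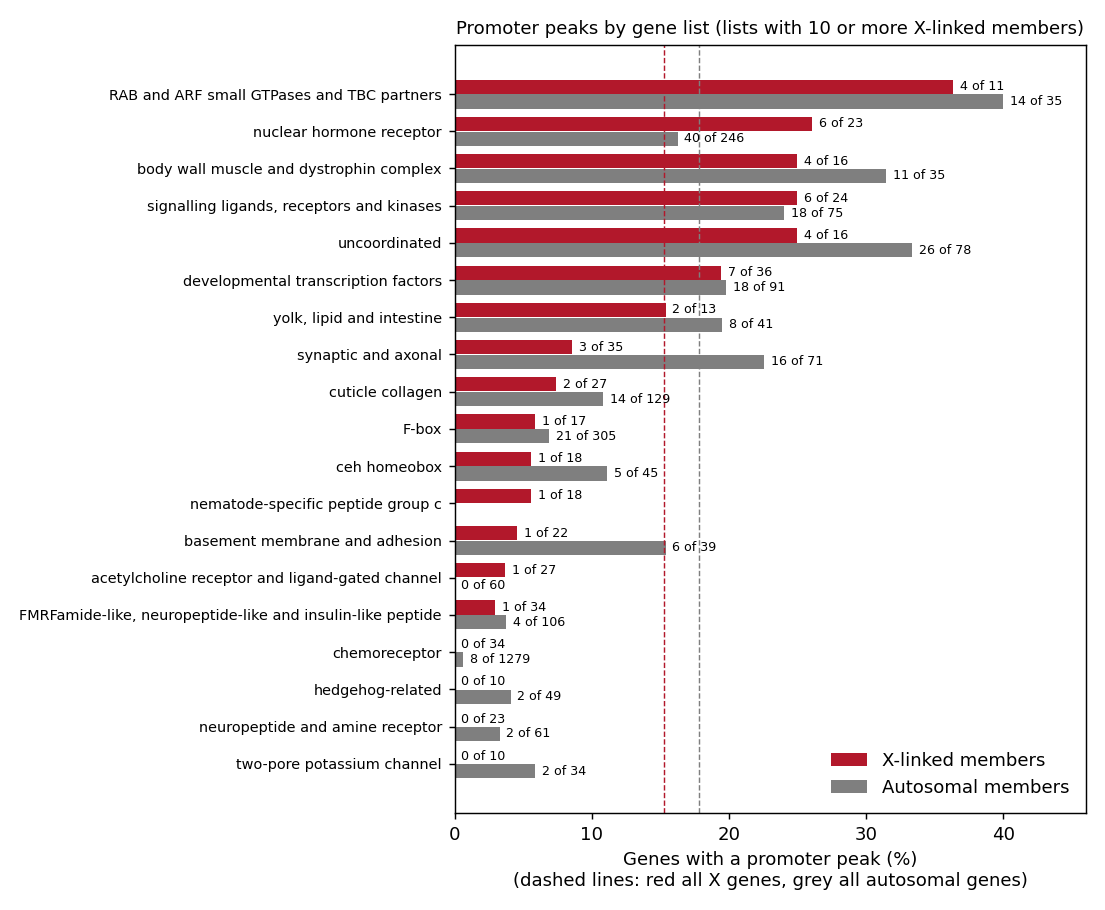
Percent of X-linked members (red) and of autosomal members (grey) with a promoter peak in each gene list of 10 or more X-linked genes, with counts beside the bars and dashed lines at the shares over all X and all autosomal genes. The synaptic and axonal list is at 8.57% on X and 22.5% on the autosomes, and nuclear hormone receptors are at 26.1% on X and 16.3% on the autosomes.

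Further sets were written down after the members had been seen, partly from their own names, so their counts are fixed in part by that choice and support nothing. Folding and stress genes of the endoplasmic reticulum had a peak at 11 of 11 on X and 15 of 22 on the autosomes. On X they included pdi-6 (222, rank 435), trap-2 (rank 641), atf-6 (rank 923), pdi-2 and pek-1 (rank 1484), beside serp-1.1, uggt-1 and hsp-3. The genes atf-6 and pek-1 encode sensors of the unfolded protein response. Genes of receptor-mediated endocytosis had 8 of 8 on X and 7 of 15 on the autosomes. Among them were dpy-23 (223, rank 430), apa-2 (rank 1352) and aps-2 (rank 3076), subunits of the clathrin adaptor AP-2, with the dynamin gene dyn-1 (rank 1424) and the epsin gene epn-1 (rank 622). Citric acid cycle and propionyl-CoA carboxylase genes had 8 of 8 on X and 13 of 20 on the autosomes. Among those on X were sdha-1, sucl-1 (rank 577), suca-1 (rank 1386), idh-2 (rank 1412) and idhb-1 (rank 1613). The idh-2 summit was shared with C34F6.7, whose 5′ end was nearer. The 8 also included aco-1, annotated as a cytoplasmic aconitate hydratase. Respiratory chain and ATP synthase genes had 6 of 7 on X and 23 of 39 on the autosomes, and the X gene without one was gas-1, of complex I. The remaining sets were smaller. Exocyst genes had 2 of 2 on X and 3 of 6 on the autosomes, autophagy genes 3 of 3 and 14 of 23, and translation factors 4 of 4 and 25 of 36. Palmitoyltransferases of the dhhc class, which attach a fatty acid to proteins, had 4 of 4 on X, ranked 1577 to 2751, and 2 of 10 on the autosomes. Heparan sulfate genes had 2 of 4 on X, hst-2 and hst-6 (rank 1670), and 5 of 15 on the autosomes.

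Classes drawn from words in the RefSeq product names gave counts over every X gene with that word, for 2669 X genes matched by symbol, and these classes too were chosen after values were seen. Products named as mitochondrial had a promoter peak at 13 of 25 on X and 125 of 267 on the autosomes (46.8%). Protein kinases had 16 of 72 on X (22.2%) and 54 of 299 on the autosomes (18.1%). RING and E3 ubiquitin ligase products had 8 of 29 on X and 33 of 161 on the autosomes, and tetraspanins 3 of 11 on X and 0 of 12 on the autosomes. G protein-coupled receptors had 2 of 70 on X and 4 of 523 on the autosomes, and ion channels and ligand-gated receptors 0 of 52 on X and 9 of 147 on the autosomes. Products named only as uncharacterized had 28 of 344 on X (8.14%) and 160 of 1500 on the autosomes (10.7%).

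Some summits were close to non-coding genes as well. Within 200 bp of a tRNA gene lay 17 X promoter summits (4.13%, 2.42 to 6.52), against 28 autosomal promoter summits (1.15%, 0.769 to 1.66), 74 X summits outside windows (15.1%, 12.1 to 18.6) and 3.87% of the whole list. The strongest of the 17 were in the windows of C28G1.2 and sec-15 together (202, rank 552), ZK1193.2 (signal 197), the vitamin transporter gene smvt-1 (185, rank 675) and sor-3 (184, rank 688). The egl-17, ajm-1, lev-9 and col-185 peaks named above were also among the 17. Genes annotated as ncRNA were near more summits. They lay within 200 bp of 62 X promoter summits (15.05%). The counts were 239 autosomal promoter summits (9.86%) and 124 X summits outside windows (25.4%). The puf-9, rpl-11.2 and eef-1A.2 peaks were among the 62. A lincRNA gene lay within 200 bp of 5 X promoter summits (1.21%), among them that of rpl-11.2. For lincRNA genes the counts were 7 autosomal promoter summits (0.289%) and 1 X summit outside windows (0.204%). Whether a peak near a non-coding gene of any of these classes belongs to that gene or to the protein-coding gene cannot be told apart. A snoRNA gene lay within 200 bp of 1 summit (0.243%), that of sdha-1, against 33 autosomal promoter summits (1.36%) and 3 X summits outside windows (0.613%). No miRNA gene lay that near to any of the 412, which allows a share of up to 0.891%. This was rare in the other sets too, with 4 autosomal promoter summits (0.165%) and 0 X summits outside windows.

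Promoter summits on X had a higher GC content than their surroundings, as did the other sets of summits. The 101 bases around the summit had a median GC content of 48.5% (47.5 to 49.5) for X promoter peaks, against 44.6% (43.6 to 44.6) for autosomal promoter peaks and 44.6% (43.6 to 44.6) for X peaks outside windows. Windows 300 bp to each side of the summits had 33.7% for X promoter peaks, against 34.7% for autosomal promoter peaks and 33.7% for X peaks outside windows. For comparison, windows centred 227 bp upstream of the 5′ ends of all 2731 X genes had 34.7%.

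Short words were counted on both strands in these 101 bases. The words counted here and below were chosen with earlier results of these data known. Their excess at summits over the comparison windows defined below may in part follow from that choice. CTGCGTC was present at 34 X promoter summits (8.25%, 5.78 to 11.3), against 300 autosomal ones (12.4%, 11.1 to 13.7) and 27 X summits outside windows (5.52%, 3.67 to 7.93). It occurred in 1.28% of the comparison windows of all X genes. Each of these is 101 bases centred 227 bp upstream of the 5′ end, not a whole promoter window. The longer form CTGCGTCTC, which contains CTGCGTC, was at 26 X promoter summits (6.31%, 4.16 to 9.11) and 248 autosomal ones (10.2%, 9.05 to 11.5). It was in 0.622% of the X comparison windows. In the sequences above it lies at asb-2 and hsp-3 on the strand of the gene and at C27C12.4 and vha-15 on the other strand. Its centre was a median of 17.5 bp from the summit over the 26 peaks, and 16 of the 26 matches ran in the direction of the gene. Peaks with it ranged from rank 41, at hst-2, to rank 4598. No difference in GC content between the sets was taken out of these counts.

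Words of 6 letters were more frequent at X promoter summits than at X summits outside windows, by differing amounts. ACGCGC was at 14.3% of X promoter summits (11.1 to 18.1) and 14.7% of autosomal promoter summits (13.3 to 16.2). It was at 4.09% of X summits outside windows (2.52 to 6.25) and in 2.49% of the X comparison windows. GAGCGC was at 13.8%, 14.2% and 4.09% of the same sets of summits, against 2.09% of the X comparison windows. These words can overlap each other by their shared GCGC. For both words the X and autosomal promoter intervals overlapped. GACGCA, which overlaps CTGCGTC on the other strand, was at 14.6% of X promoter summits (11.3 to 18.3), 17.98% of autosomal promoter summits (16.5 to 19.6) and 7.98% of X summits outside windows (5.73 to 10.7). CGTCTC, which lies within CTGCGTCTC, was at 15.5% (12.2 to 19.4), 18.6% (17.1 to 20.2) and 10.02% (7.51 to 13.03) of the same sets. For CGTCTC the intervals of both X sets overlapped.

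The core word of the dosage compensation recruitment motif, GCGCAGGG, was at 4 X promoter summits (0.971%, 0.265 to 2.47), 1 of 2425 autosomal promoter summits and 11 of 489 X summits outside windows (2.25%, 1.13 to 3.99). It was in 3 of the promoter windows of all 2731 X genes. The 4 were nspc-17, ins-39, R04E5.9 together with cnnm-2 (260.3, rank 305) and apm-3 (64.9, rank 3282), and 3 of them stood in the highest 10% of the list. The centre of the word lay 2 to 24 bp from these summits. A match describes the letters only, and occupancy by the dosage compensation complex was not measured here.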

How the data were processed

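The data are ChIP-seq peak lists of GFP-tagged MEP-1 from 2 biological replicates of 1 group, with fragments sized 150 to 350 bp, per the labels. The lists are the authors' calls on ce11: 30000 and 29149 relaxed peaks in replicates 1 and 2, 30000 in the pooled replicates and 4904 in the optimal list left by the irreproducible discovery rate (IDR) step, as the deposited file lists say. Column 7 holds a signal value for each peak, deposited by the authors, and its scale differs between lists, so it ranks peaks within a list only. The optimal list was checked to hold the 4904 highest-signal pooled peaks. The sources used here do not give aligner, peak caller, IDR threshold or read counts, so depth is unknown. No control library was analysed here.

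Promoter windows used the 19973 protein-coding genes of Ensembl release 115 (WBcel235). Sequences were read from RefSeq's assembly of the same build. A peak was named by the nearest 5′ end. A replicate match was an overlap of at least 1 bp with 1 of its 4904 strongest calls. Intervals are exact Clopper-Pearson intervals, or order-statistic intervals of medians, at 95%. The assignment of summits to windows was tested on simulated summits. Python 3.11.15, numpy 2.4.6, pandas 2.3.3, scipy 1.17.1 and matplotlib 3.10.9 were used.

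The members, the 32 gene lists and the words were chosen with earlier results of these data known, and 9 further lists and the product classes after the members' values were seen. Named genes are those of the 25 strongest members, in each list up to 4 with the strongest peak and the first 2 by alphabet without one, the 3 nearest, 3 farthest and 3 weakest summits, the strongest peak of the 2 fullest and 2 emptiest full 1 Mb bins, up to 4 beside non-coding genes and the 3 widest replicate gaps. Genes with several peaks, those at window edges, those given as outside a list and those of the further sets were named after their values were seen. Alternatives were other windows, outermost 5′ ends, a stricter signal threshold, each replicate alone, stricter overlap, other distances and the ce10 calls.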

Additional observations from a re-analysis of the deposited data

How the results depend on the processing

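Of 55 alternatives 38 left a value within the interval of the main setting and 17 put it outside. None was labelled reversed, but most of these values are shares or ranks with no direction to reverse. Comparisons with the autosomes were not among the alternatives. The share of genes with a summit was lower on X in the optimal list and higher on X in the relaxed pooled list. With windows of 500 bp, 2000 bp, outermost 5′ ends and the higher-signal 50% of the list, the share of X peaks in windows was 36.7%, 59.8%, 40.1% and 53.4%, and that of X genes with a peak 12.4%, 19.99%, 13.9% and 8.93%. The windows of 500 and 2000 bp gave a median distance of -180 and -315 bp and a tRNA share of 2.11% and 6.86%. Summits in windows of 2 or more genes were 16.1% at 2000 bp and 11.4% in the higher-signal 50%. The share among the strongest of both replicates was 99.5% in the higher-signal 50%, which is built from the rank, and 61.2% with a reciprocal overlap of 50%. Each replicate alone, leaving out the other, gave 14.9% to 16.7% of X genes with a peak and 45.3% to 48.4% of X peaks in windows. On ce10 X held 18.4% of peaks, as on ce11.

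No paired analysis was possible because there is 1 group. With 2 replicates, unknown depth and no control library analysed here, signal differences between peaks have no error of their own. The sets differed in GC content, and its part in their differences in signal or words was not tested.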
